A study of Rattus norvegicus with 8 samples.

Results

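The genes described here encode the protein subunits of oxidative phosphorylation, the set of mitochondrial complexes that pass electrons to oxygen and make ATP. Members were the gene symbols that begin with Nduf followed by a, b, c, s or v, with Cox4 to Cox8, with Uqcr or with Atp5, together with Sdha, Sdhb, Sdhc and Sdhd. There were 84 such symbols among the 16514 listed in the series, 84 of 16183 in hypothalamus and 80 of 16223 in hippocampus. Of the 84, 74 encode subunits of the 5 complexes or their isoforms, 6 encode assembly factors of complex I whose symbols begin with Ndufaf, and 4 match the pattern without encoding a subunit. RNA of male Sprague Dawley rats, outbred animals, was sequenced from hypothalamus and from hippocampus, with 4 libraries from each tissue. All 8 libraries came from 1 diet arm: the animals were 2 months old at the start and were fed omega-3 fatty acids, labelled DHA (docosahexaenoic acid), with 15% fructose in the drinking water for 6 weeks. The diet therefore has no comparison here, and the contrast is between tissues. Whether the 4 libraries of a tissue are separate animals is not stated in the labels, so their spread may be technical.

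Complex I oxidises NADH and complex II oxidises succinate, and both hand electrons to ubiquinone. Complex III passes them on through cytochrome c to complex IV, which reduces oxygen to water, and ATP synthase uses the proton gradient that complexes I, III and IV build. The brain depends on this pathway for most of its ATP, much of which is spent on ion pumping at synapses. All subunits among the members are encoded in the nucleus and imported as proteins. The subunits encoded by the mitochondrial genome were not analysed here.

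Levels are FPKM, the number of fragments per unit of transcript length and of library size, as the authors estimated them, added up where a symbol had several loci. Each tissue was deposited as a table of its own, normalised apart, so tissue and table cannot be told apart and differences between tissues carry no p-value. Values of a gene were scaled by median-of-ratios factors computed jointly over 15892 shared symbols, and the median of all genes then lay at -0.04 on the log2 scale. A gene was called higher or lower in hypothalamus when its mean difference of log2(FPKM + 1) was at least 1, a 2-fold change on that scale, and the 4 libraries of one tissue did not overlap the 4 of the other. The scale understates differences of genes with low values. Libraries are given in the order of replicates 1 to 4, a numbering that carries no rank. The summed FPKM of Avp, Oxt, Pmch and Hcrt, peptide genes of hypothalamic neurons, lay between 5445 and 10571 in hypothalamus and between 2.11 and 8.29 in hippocampus. Neurod6, Slc17a7, Itpka and Wfs1, genes of hippocampal principal neurons, summed to 16.7 to 21.0 FPKM in hypothalamus and 994 to 1656 FPKM in hippocampus. The number of reads was unknown. Hippocampus replicate 2 stood apart from the other libraries of its tissue in the oxidative phosphorylation genes. The total counts of calls, and the calls of single genes that rest on it, are therefore also given without it. Called counts and shares of each complex include it.

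These genes were among the most abundant transcripts of both tissues. In hypothalamus 48 of the 84 members lay in the top 5% of symbols by mean FPKM and 19 in the top 1%, and in hippocampus 44 of the 80 lay in the top 5% and 13 in the top 1%. Scaled within its own table, the summed FPKM of all subunits was 20870, 18958, 21553 and 21301 in hypothalamus, against 13419, 8943, 11392 and 15081 in hippocampus. The groups did not overlap, and the sum made up 4.55% ± 0.310 (SD, n = 4) of all FPKM in hypothalamus and 3.15% ± 0.520 (SD, n = 4) in hippocampus. Over the 71 subunits listed in both tables, on the jointly scaled values, the sums averaged 18267 ± 1034 FPKM in hypothalamus and 13201 ± 2875 FPKM in hippocampus (SD, n = 4 each). In bulk tissue such as this, fewer cells of a type and less RNA per cell cannot be told apart.

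ATP synthase held the largest share of the summed level in both tissues. Its genes summed to 7427 ± 334 FPKM in hypothalamus, from 14 genes, and 3759 ± 660 FPKM in hippocampus, from 13 genes (SD, n = 4 each, scaled within a table). That was 36% of the subunit sum in hypothalamus and 31.0% in hippocampus. Complex I summed to 5897 ± 382 FPKM in hypothalamus, from 32 genes, and 3601 ± 927 FPKM in hippocampus, from 30 genes, and its share of the subunit sum was 28.5% and 29.3% in the same order. Complex IV reached 5060 ± 445 FPKM in hypothalamus and 3062 ± 767 FPKM in hippocampus. Complex III reached 1747 ± 177 FPKM in hypothalamus and 1241 ± 227 FPKM in hippocampus. Complex II, with 4 genes, summed to 539 ± 21.9 FPKM in hypothalamus and 546 ± 92.1 FPKM in hippocampus, a difference within the spread of the libraries. Its share of the subunit sum was 2.61% in hypothalamus and 4.51% in hippocampus. On the jointly scaled values and over the genes of both tables, ATP synthase was the complex whose libraries did not overlap, with 6610.2 ± 286 FPKM in hypothalamus and 4064 ± 714 FPKM in hippocampus. The other 4 overlapped: complex I averaged 4897 ± 343 FPKM in hypothalamus and 3894 ± 1004 FPKM in hippocampus, and complex IV 4656 ± 401 FPKM in hypothalamus and 3311 ± 836 FPKM in hippocampus.

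**Figure D1:**
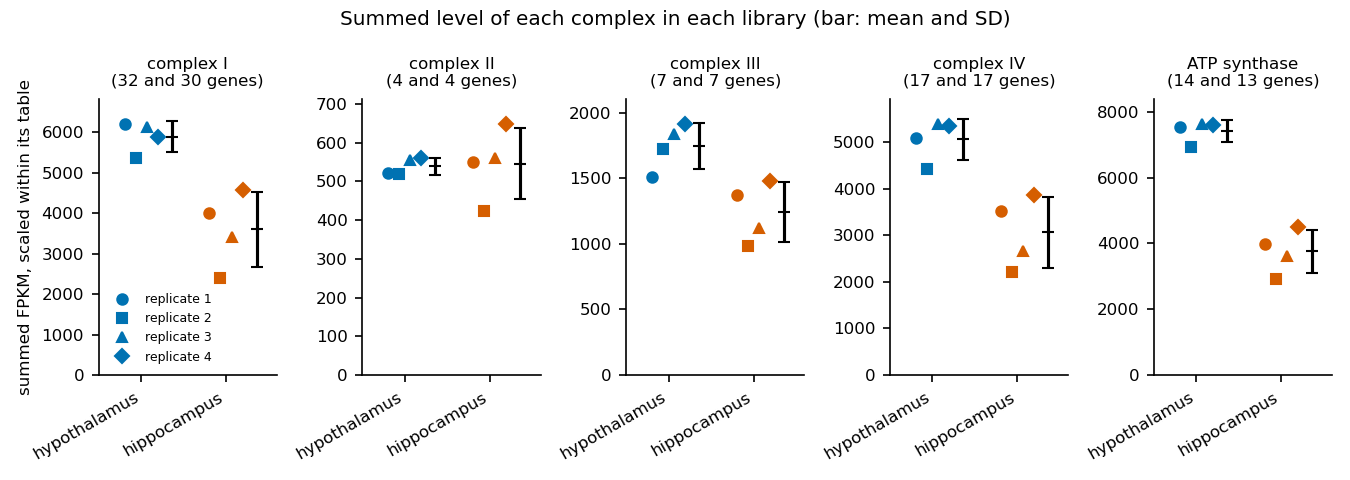
Summed FPKM of each complex in each library, scaled within the library's own table, with hypothalamus in blue and hippocampus in orange and the mean and SD of 4 libraries beside the points. Complexes I, III, IV and ATP synthase lie higher in every hypothalamus library than in any hippocampus library on this scale, complex II does not, and hippocampus replicate 2 (square) is the lowest hippocampus library in all 5 panels.

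Subunits of 1 complex, which are built into it in fixed ratios as proteins, differed widely in transcript level. In complex I the highest member of hypothalamus was Ndufab1, the mitochondrial acyl carrier protein, with 640.2, 495, 784 and 526 FPKM, and the lowest was Ndufb3, a small accessory subunit, with 14.7, 16.9, 13.2 and 16.8 FPKM. In hippocampus the highest of complex I was Ndufb8, an accessory subunit of the membrane arm, with 552, 306, 405 and 551 FPKM, and the lowest was Ndufa12, an accessory subunit of the matrix arm, with 2.02, 2.200, 1.23 and 2.46 FPKM. The top and bottom genes of the complex were thus different ones in the 2 tissues. In ATP synthase Atp5j2, subunit f, led in hypothalamus with 1380.3, 1362, 1752 and 1509.8 FPKM, and Atp5l, subunit g, led in hippocampus with 705, 845, 659.7 and 722 FPKM. Atp5f1, the b subunit of the stator stalk, was the lowest in both, with 0.107, 2.09, 0.126 and 2.999 FPKM in hypothalamus and 2.03, 8.300, 1.17 and 2.05 FPKM in hippocampus, each summed over 2 loci. All other ATP synthase genes were above 50 FPKM in every library.

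**Figure D2:**
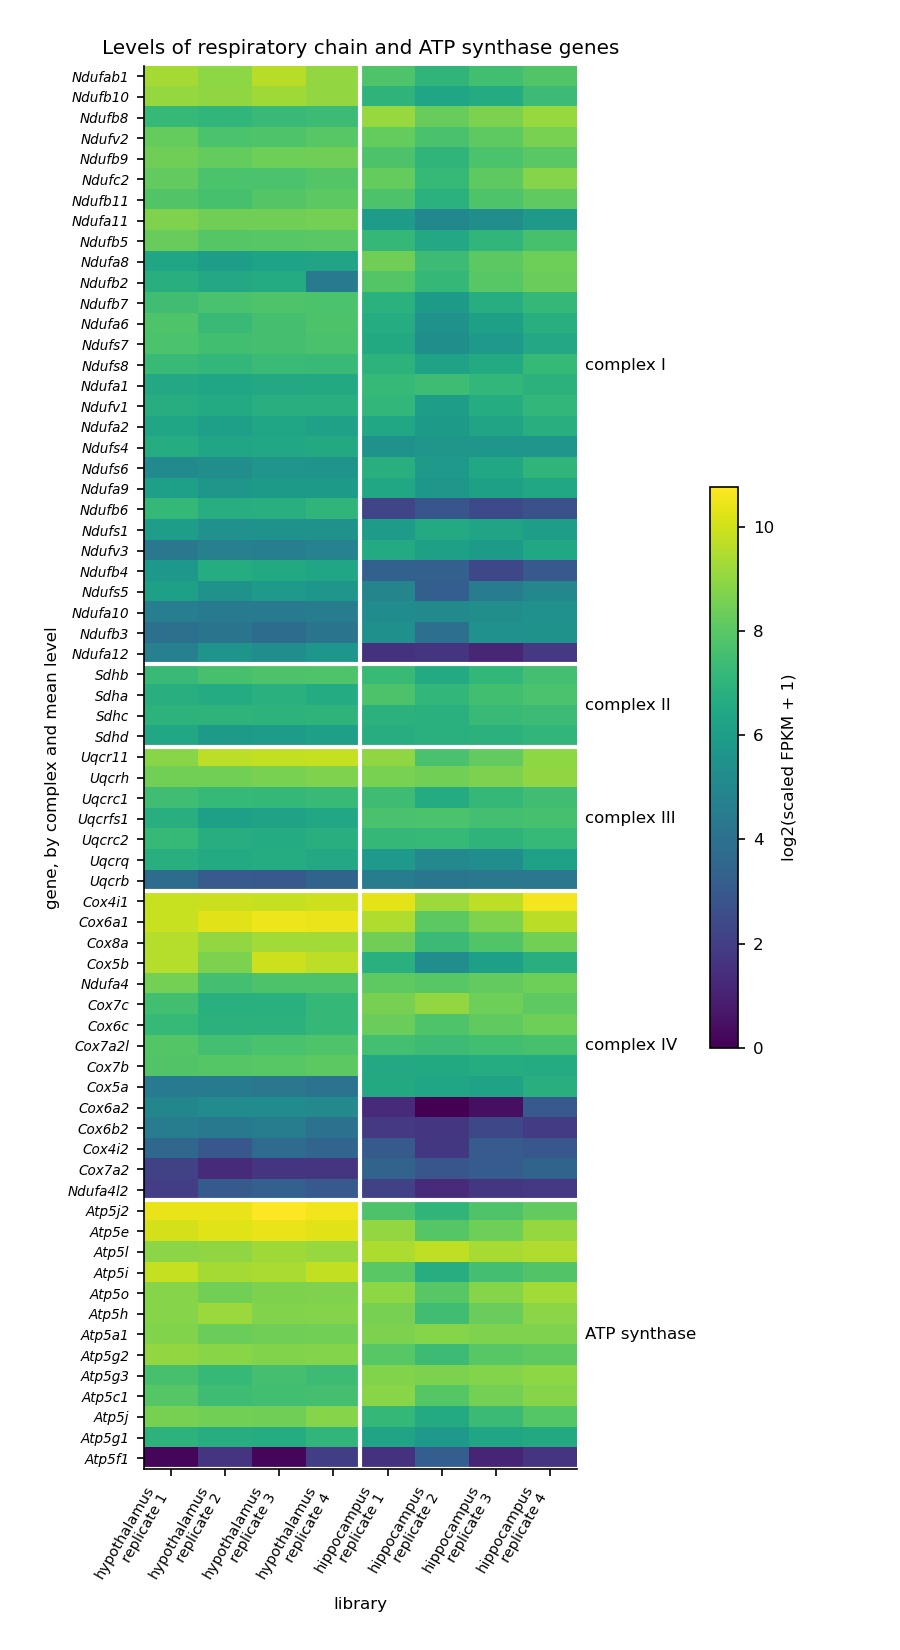
Level of the subunit genes shown, as log2(scaled FPKM + 1), with 1 column per library (hypothalamus left, hippocampus right) and genes ordered by complex and mean level. Some rows of 1 complex change in opposite directions between the tissues, as in Ndufb8 and Ndufa11 or Cox5a and Cox6a2.

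Short motifs known from nuclear genes of mitochondria were counted in the DNA before the start of each gene. RefSeq sequences of the build GRCr8 were matched for 72 of the 84 members, and the 250 bases before the annotated start were read on both strands for GCGCANGCG, the motif bound by nuclear respiratory factor 1 (NRF-1), CCGGAAG, bound by ETS factors such as GABP (nuclear respiratory factor 2), GCCATNTTG, bound by YY1, and GGGCGG, bound by SP1. The NRF-1 motif was in 16 promoters of members, 22.2%, against 7.19% of all 18999 protein-coding promoters. The ETS motif was in 20, 27.8%, against 9.52%, and the YY1 motif in 6, 8.33%, against 1.70%. Among 66 promoters of ribosomal protein genes the NRF-1 motif was in 13.6%, the ETS motif in 24.2% and the YY1 motif in 1.52%, so for the ETS motif that class was close to the members. The SP1 motif was in 38.9% of members and 40.3% of all promoters. At least 1 of the NRF-1, ETS and YY1 motifs stood in 48.6% of members and in 16.6% of all promoters. These shares describe letters in a window and show no binding. The 6 sequences below, printed 5′ to 3′ on the gene's strand and ending at the base before its start, were chosen to show members that differ between the tissues with and without these motifs, and the c subunit genes Atp5g2 and Atp5g3. Capitals mark NRF-1, ETS and YY1 matches on either strand. In Atp5i, Ndufa11 and Atp5g2 the NRF-1 run reads the same on both strands, so matches of both strands overlap there.
Atp5i (GRCr8 chr14:1464610-1464859, plus strand): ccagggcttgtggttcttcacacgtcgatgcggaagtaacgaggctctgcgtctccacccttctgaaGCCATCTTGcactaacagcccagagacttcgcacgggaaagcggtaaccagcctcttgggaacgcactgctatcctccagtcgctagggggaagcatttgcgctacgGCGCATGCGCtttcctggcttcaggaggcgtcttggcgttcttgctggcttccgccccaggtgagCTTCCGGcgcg
Ndufa11 (GRCr8 chr9:1637364-1637613, plus strand): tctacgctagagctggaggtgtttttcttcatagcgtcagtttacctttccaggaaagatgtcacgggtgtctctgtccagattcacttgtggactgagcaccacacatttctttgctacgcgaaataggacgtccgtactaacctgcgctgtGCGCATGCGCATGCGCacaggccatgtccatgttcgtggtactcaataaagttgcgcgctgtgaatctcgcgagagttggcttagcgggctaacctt
Ndufb6 (GRCr8 chr5:60206153-60206402, minus strand): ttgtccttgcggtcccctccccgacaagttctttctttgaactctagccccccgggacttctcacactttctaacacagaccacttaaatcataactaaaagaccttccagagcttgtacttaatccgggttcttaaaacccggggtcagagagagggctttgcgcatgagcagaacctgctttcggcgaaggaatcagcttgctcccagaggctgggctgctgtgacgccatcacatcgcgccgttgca
Ndufv3 (GRCr8 chr20:9613536-9613785, plus strand): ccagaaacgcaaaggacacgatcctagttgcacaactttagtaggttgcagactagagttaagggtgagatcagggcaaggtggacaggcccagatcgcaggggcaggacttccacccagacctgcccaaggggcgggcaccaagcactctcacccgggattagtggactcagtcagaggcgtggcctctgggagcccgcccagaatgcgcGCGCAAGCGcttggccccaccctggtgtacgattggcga
Atp5g2 (GRCr8 chr7:135678219-135678468, minus strand): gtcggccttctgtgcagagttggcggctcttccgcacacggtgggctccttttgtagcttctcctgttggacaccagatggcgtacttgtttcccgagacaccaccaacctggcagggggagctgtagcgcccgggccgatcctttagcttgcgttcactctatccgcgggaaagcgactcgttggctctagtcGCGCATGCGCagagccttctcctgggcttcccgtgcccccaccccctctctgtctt
Atp5g3 (GRCr8 chr3:79220665-79220914, minus strand): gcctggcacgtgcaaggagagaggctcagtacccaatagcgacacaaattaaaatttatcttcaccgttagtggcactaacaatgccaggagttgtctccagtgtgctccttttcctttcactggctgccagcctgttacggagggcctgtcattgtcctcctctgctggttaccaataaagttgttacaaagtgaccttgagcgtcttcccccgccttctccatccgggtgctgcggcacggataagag
Atp5i, higher in hypothalamus, holds matches of all 3 motifs, and Ndufb6, the member with the largest difference, holds none. Ndufv3, lower in hypothalamus, holds 1 NRF-1 match. Of the c subunit genes, Atp5g2 holds the NRF-1 motif and Atp5g3 none of the 3. Of 20 promoters of members called higher in hypothalamus, 6 held the NRF-1 motif and 7 the ETS motif. Of 10 promoters of members called lower, 2 held each. Of 36 promoters of members called neither way, 8 held the NRF-1 motif and 11 the ETS motif. A link between motif and direction was not tested.

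Oxidative phosphorylation genes did not move as 1 block between the tissues: single subunits of the same complex were far higher or far lower in hypothalamus. Of the 80 members in both tables, 77 reached a mean of 1 FPKM and were compared. The 3 below that level were Cox8b, Cox8c and Cox6c-ps1, a symbol listed at 0 in every library. The calls split into 22 members that were higher in hypothalamus, 12 that were lower and 43 that passed neither way. Without hippocampus replicate 2 the calls numbered 17 higher and 15 lower. The called share of members was 44.2%, against 26.7% of all 10554 genes compared, of which 13.3% were higher and 13.4% lower. Among the 1634 genes at a mean level of 50 FPKM or more, which most members reach, it was 37.3%. The median difference of the 77 members was -0.05, close to the -0.04 of all genes, while the median of its absolute value was 0.98 against 0.59 for all genes. Differences of at least 2 on the log2 scale, a 4-fold change, were seen in 11 of the 77 members, or 14.3%, and in 6.93% of all genes. Ribosomal protein genes, another class of short and abundant transcripts, showed such differences in 20 of 68 members, or 29.4%, and 39.7% of them were called.

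Members called by this rule depended on the scaling in part. With values as deposited, 28 members were higher and 10 were lower, and the median of all genes moved to 0.18; of all calls, 65.3% were then higher, against 49.8% after joint scaling. Many genes of this kind have processed pseudogenes in mammalian genomes, and the counting could have divided reads among near-identical copies. How reads were assigned was not tested, so the level of a single member is uncertain to that extent. A single locus in each table stood behind 72 of the 80 shared members, and all 11 members that differed at least 4-fold were among them. Loci were counted by symbol, so this count does not bear on copies under another symbol or on unlisted copies.

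**Figure D3:**
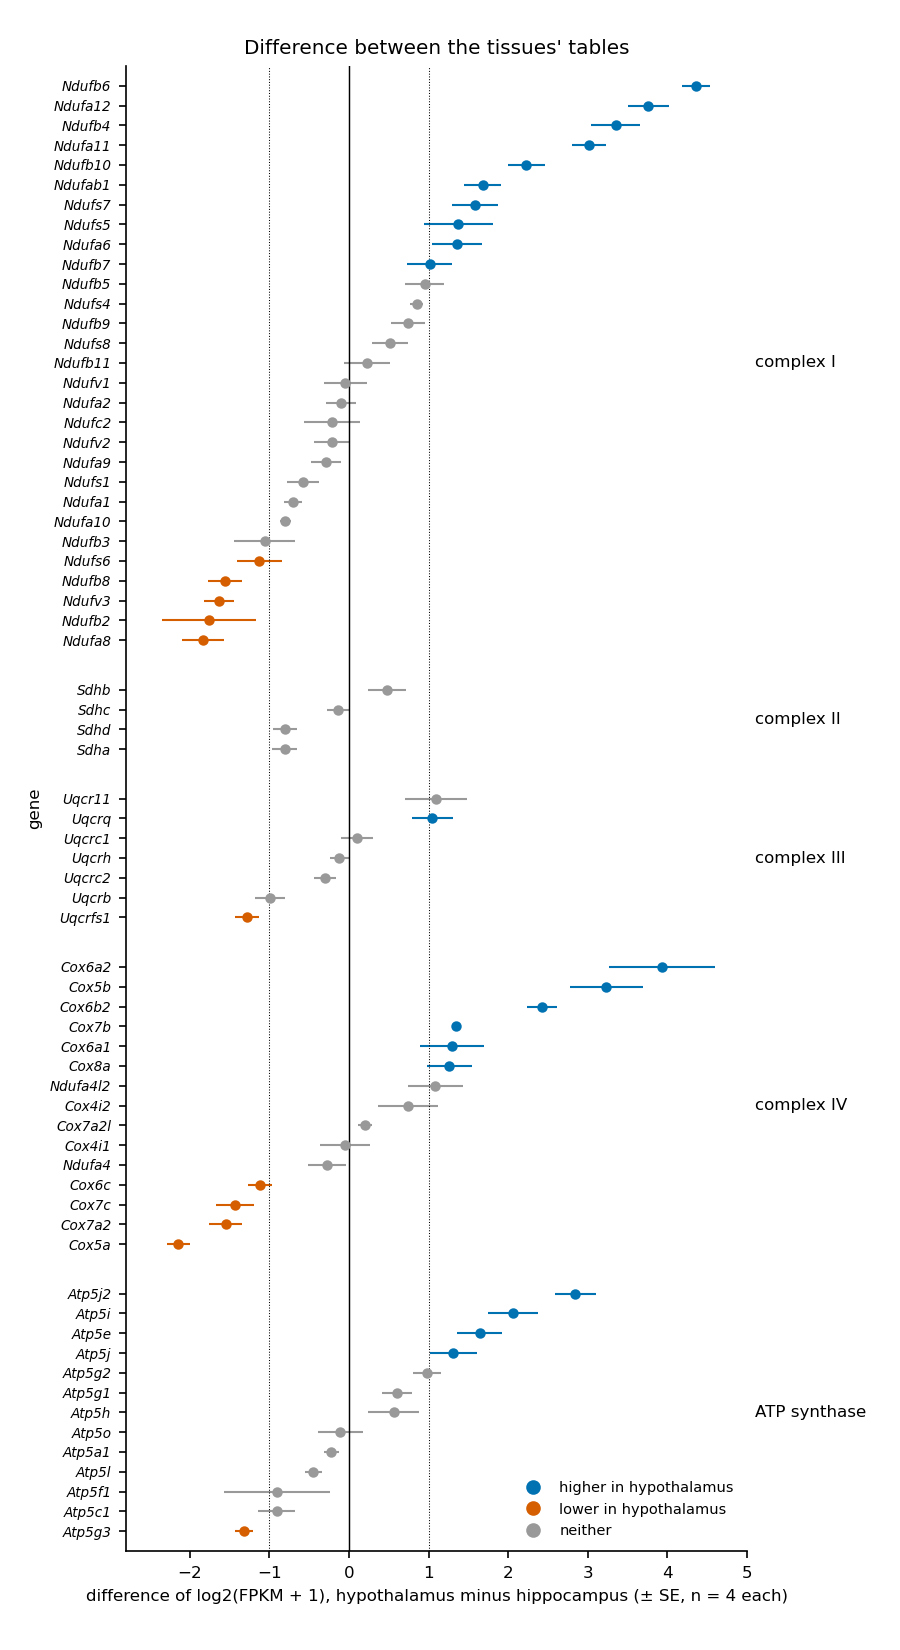
Difference of log2(FPKM + 1), hypothalamus minus hippocampus, for the subunit genes shown, with its SE over 4 libraries each, ordered within its complex. Blue points were called higher and orange points lower in hypothalamus; complex I spans -1.83 to 4.36 and complex IV -2.14 to 3.93, while all 4 complex II genes stay between the dotted lines at a 2-fold change.

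Complex I had 10 genes called higher in hypothalamus and 5 called lower among 30, with a median difference of 0.09. Accessory subunits, which surround the catalytic core, carried nearly all of these calls: 9 of 24 were higher and 5 were lower. Ndufb6, an accessory subunit of the membrane arm, had 143, 103, 109 and 130.0 FPKM in hypothalamus, against 3.82, 6.47, 4.34 and 5.32 FPKM in hippocampus. Every hypothalamus library was over 10 times as high as any hippocampus library, and the difference was 4.36 ± 0.18 (log2, ± SE, n = 4 each). Ndufa12 had 25.1, 46.98, 38.1 and 49.9 FPKM in hypothalamus, against 2.02, 2.200, 1.23 and 2.46 FPKM in hippocampus, a difference of 3.76 ± 0.26. Ndufb4, of the membrane arm, had 53.4, 101, 92.9 and 83.3 FPKM in hypothalamus, against 9.097, 9.002, 4.04 and 6.99 FPKM in hippocampus, and Ndufa11, of the same arm, had 416, 343, 350.2 and 370.2 FPKM in hypothalamus, against 59.3, 31.7, 39.1 and 54.8 FPKM in hippocampus. Their differences were 3.35 ± 0.31 and 3.01 ± 0.22, with wide gaps between the groups. Ndufb10 followed with 529.7, 508, 599 and 517 FPKM in hypothalamus, against 129, 80.1, 97.2 and 167 FPKM in hippocampus, a difference of 2.23 ± 0.24, and Ndufab1 with one of 1.68 ± 0.23. Ndufa6, Ndufs5 and Ndufb7, further accessory subunits, were higher by 1.36, 1.37 and 1.02. The calls of Ndufs5 and Ndufb7 rested on hippocampus replicate 2, and without it the differences were 0.97 and 0.75; Ndufb7 also fell short without hypothalamus replicate 3 (0.98) and, just under the limit, without replicate 4.

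Accessory subunits lower in hypothalamus differed by up to -1.83 on the log2 scale. Ndufa8, which faces the intermembrane space, had 81.3, 63.9, 75.7 and 76.5 FPKM in hypothalamus, against 348, 164, 265 and 335 FPKM in hippocampus, a difference of -1.83 ± 0.26. Ndufb8 had 149.7, 133, 153 and 164 FPKM in hypothalamus, against 552, 306, 405 and 551 FPKM in hippocampus, and Ndufv3, an accessory subunit of the NADH-oxidising module, had 19.1, 25.1, 23.6 and 26.6 FPKM in hypothalamus, against 95.2, 68.8, 57.1 and 84.4 FPKM in hippocampus. Their differences were -1.55 ± 0.21 and -1.64 ± 0.19, and no hypothalamus library reached the lowest hippocampus library. Ndufb2, of the membrane arm, had 106, 90.9, 99.04 and 21.6 FPKM in hypothalamus, against 237, 143, 253 and 329.6 FPKM in hippocampus. Hypothalamus replicate 4 lay far under the other three there, and the difference of -1.75 ± 0.59 carries the widest error of the lower genes. Under the 19 alternatives the difference ran from -2.13 to -1.22, with the call kept. Ndufs6, of the NADH-oxidising module, was lower by -1.12 ± 0.28, a call lost without hippocampus replicate 4 (-0.96), without replicate 1 of both tissues (-0.95) and with values as deposited (-0.89).

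Of all genes compared 13.3% were higher and 13.4% lower. No test set the catalytic core of complex I, a short list, against the accessory subunits. Of the 6 core subunits in both tables, 1 was higher and none was lower in hypothalamus. That subunit was Ndufs7, which carries an iron-sulfur cluster near the ubiquinone site, with 212, 184, 195 and 205 FPKM in hypothalamus, against 92.5, 40.4, 55.9 and 89.8 FPKM in hippocampus and a difference of 1.58 ± 0.29. Ndufv1, which binds NADH and flavin, had 103, 95.9, 106 and 106 FPKM in hypothalamus, against 141, 63.8, 100.5 and 139 FPKM in hippocampus. Its groups overlapped, as did those of Ndufv2, an iron-sulfur subunit, with a difference of -0.22 ± 0.22. Ndufs1, the largest iron-sulfur subunit, differed by -0.58 ± 0.20 and Ndufs8, another iron-sulfur subunit, by 0.51 ± 0.23, both under the size that was called. Ndufb3 differed by -1.06 ± 0.39 with overlapping groups, since hippocampus replicate 2 was at 14.5 FPKM and the other hippocampus libraries between 41.0 and 45.7 FPKM; without that library the difference was -1.44 and the gene was called lower. Of the other accessory subunits, Ndufb5 and Ndufs4 differed by 0.95 and 0.85 and were called higher with values as deposited, at 1.19 and 1.08; Ndufb5 was also called with upper-quartile scaling (1.07) and without hippocampus replicate 4 (1.12). The remaining 7 lay between the -0.80 of Ndufa10 and the 0.74 of Ndufb9.

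None of the 4 complex II genes was called, where 26.7% of all genes compared were. Their median difference was -0.47. Sdha, the flavoprotein that oxidises succinate, had 112, 98.5, 112 and 97.6 FPKM in hypothalamus, against 219, 138, 181 and 210.0 FPKM in hippocampus, and Sdhd, a membrane anchor, had 87.2, 58.4, 61.05 and 65.8 FPKM in hypothalamus, against 105, 113, 121 and 136 FPKM in hippocampus. Neither pair of groups overlapped, at differences of -0.81 ± 0.16 and -0.80 ± 0.15. Sdhb, the iron-sulfur subunit, differed by 0.48 ± 0.24 and Sdhc, the other anchor, by -0.14 ± 0.14, with overlapping libraries.

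Complex III had 1 gene called higher in hypothalamus and 1 called lower among 7, or 28.6%, near the 26.7% of all genes. Uqcrfs1, the Rieske iron-sulfur protein that passes electrons towards cytochrome c, had 106, 66.8, 73.2 and 85.9 FPKM in hypothalamus, against 206, 212, 185 and 198 FPKM in hippocampus, a difference of -1.28 ± 0.15. Uqcrq, a small subunit, had 106, 95.3, 101 and 90.1 FPKM in hypothalamus, against 54.4, 32.4, 37.9 and 71.4 FPKM in hippocampus, a difference of 1.05 ± 0.26; the call was lost without hippocampus replicate 2 (0.87) or replicate 3 (0.94). Uqcr11, another small subunit and the highest of the complex in hypothalamus, had 469, 820.1, 889 and 904 FPKM in hypothalamus, against 507, 205, 289 and 492 FPKM in hippocampus. Hypothalamus replicate 1 overlapped the hippocampus libraries, and without it the difference was 1.32 and the gene was called higher, as it was with values as deposited (1.33), upper-quartile scaling (1.21) and quantile normalisation (1.02). Uqcrb, a ubiquinone-binding subunit and the lowest gene of the complex, differed by -0.99 ± 0.19, just under the size that was called; it was called lower without hypothalamus replicate 1 (-1.13) or 4 (-1.04), or without hippocampus replicate 2 (-1.04), 3 (-1.01) or 4 (-1.03). Uqcrc1 and Uqcrc2, the core proteins, and Uqcrh, the hinge protein that contacts cytochrome c, differed by 0.10, -0.30 and -0.12.

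Complex IV had the largest called share of the 5 complexes, 10 of 15 genes, with 6 higher in hypothalamus and 4 lower. This was 66.7%, against 26.7% of all genes compared and 37.3% of those at 50 FPKM or more. The complexes hold few genes each, and no test compared their shares. The median difference of complex IV was 0.74, and 0.38 without hippocampus replicate 2. Cox5b, a zinc-binding subunit on the matrix side, had 763, 403, 1000.0 and 826 FPKM in hypothalamus, against 112, 38.2, 67.6 and 107 FPKM in hippocampus, a difference of 3.23 ± 0.46. Cox5a, another subunit on the matrix side, was lower in hypothalamus, with 21.3, 20.7, 18.3 and 16.3 FPKM in hypothalamus, against 92.7, 81.8, 72.95 and 106 FPKM in hippocampus, a difference of -2.14 ± 0.14. Both genes were separated in all libraries. Cox6b2, known as the testis form of subunit 6b, had 22.1, 19.3, 22.2 and 15.1 FPKM in hypothalamus, against 2.47, 2.21, 3.98 and 2.81 FPKM in hippocampus, a difference of 2.42 ± 0.18. Cox7b and Cox8a, small membrane subunits, were higher by 1.35 ± 0.06 and 1.26 ± 0.29. Cox6a1, the broadly expressed form of subunit 6a, had 929, 1249.7, 1431 and 1394 FPKM in hypothalamus, against 725, 263, 415 and 799 FPKM in hippocampus; the difference of 1.30 ± 0.40 was 0.98 and not called without hippocampus replicate 2.

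Cox7c and Cox6c, further membrane subunits, were lower in hypothalamus. Cox7c had 179.9, 115, 113 and 142 FPKM in hypothalamus, against 375, 514, 334 and 277 FPKM in hippocampus, a difference of -1.43 ± 0.24, and Cox6c had 147, 121, 121 and 142 FPKM in hypothalamus, against 322, 225, 285 and 335 FPKM in hippocampus, a difference of -1.12 ± 0.15 that was -0.89 and not called with values as deposited. Cox7a2, the broadly expressed form of subunit 7a, had low values in both tissues, with 3.32, 1.53, 2.06 and 2.17 FPKM in hypothalamus, against 9.63, 6.43, 7.86 and 10.05 FPKM in hippocampus and a difference of -1.55 ± 0.21. Cox4i1, the main form of subunit 4 and the most abundant complex IV gene of hippocampus, had 933, 975, 919 and 997 FPKM in hypothalamus, against 1282, 579.8, 836 and 1538 FPKM in hippocampus. The hippocampus libraries lay on both sides of those of hypothalamus, and the difference was -0.05 ± 0.32. Cox4nb, whose start lies 147 bases from that of Cox4i1 on the other strand of chromosome 19 in the RefSeq annotation, had 16.6, 19.8, 19.4 and 20.2 FPKM in hypothalamus, against 60.03, 28.1, 47.00 and 59.9 FPKM in hippocampus, a difference of -1.26 ± 0.26. It is listed as Emc8 in RefSeq, a subunit of a membrane protein complex of the endoplasmic reticulum, and matched the name pattern only.

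ATP synthase had 4 genes called higher in hypothalamus and 1 called lower among 13, with a median difference of 0.56. The called share was 38.5%, near the 37.3% of all genes at 50 FPKM or more. The 4 higher genes encode small subunits. Atp5j2 had 1380.3, 1362, 1752 and 1509.8 FPKM in hypothalamus, against 216, 130.0, 226 and 291 FPKM in hippocampus, a difference of 2.84 ± 0.26, and Atp5i, subunit e, had 909, 646, 686 and 885 FPKM in hypothalamus, against 257, 105, 187 and 228 FPKM in hippocampus, a difference of 2.06 ± 0.31. Atp5e, the epsilon subunit of the rotor, had 1092, 1201, 1363 and 1245 FPKM in hypothalamus, against 529, 244, 332 and 544 FPKM in hippocampus, a difference of 1.64 ± 0.29, and Atp5j, coupling factor 6 of the stator, was higher by 1.31 ± 0.29. Each was separated in all 8 libraries. Atp5a1, the alpha subunit of the catalytic head, had 425, 324, 342 and 355 FPKM in hypothalamus, against 403, 451, 411 and 413 FPKM in hippocampus. Its difference of -0.22 ± 0.09 was not called, nor was that of Atp5c1, the gamma subunit of the rotor, at -0.91 ± 0.24. Without hippocampus replicate 2 Atp5c1 was called lower, at -1.11, and without hypothalamus replicate 1 at -1.01. Atp5o and Atp5h, of the stator, and Atp5l, a membrane subunit, differed by -0.11, 0.56 and -0.45.

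The c subunit, which forms the rotating ring in the membrane, is made from 3 genes with different presequences and the same mature protein. Atp5g2 was the leading gene in hypothalamus and Atp5g3 in hippocampus. Atp5g3 had 200.0, 149, 194 and 167 FPKM in hypothalamus, against 425, 403, 444 and 496 FPKM in hippocampus, a difference of -1.32 ± 0.12, whereas Atp5g2 had 519, 458, 425 and 438 FPKM in hypothalamus, against 254, 166, 249.5 and 277 FPKM in hippocampus and Atp5g1 had 126, 104, 101 and 136 FPKM in hypothalamus, against 77.9, 55.8, 81.5 and 93.6 FPKM in hippocampus. The differences of Atp5g2 and Atp5g1 were 0.98 ± 0.18 and 0.60 ± 0.19, under the size that was called, although the libraries of the tissues did not overlap. Atp5g2 lay so close to that size that 7 of the 19 alternatives called it higher: values as deposited (1.21), upper-quartile scaling (1.09) and 5 of the 8 fits with 1 library left out, at up to 1.06. Without hippocampus replicate 2 it was at 0.81. As a share of the sum of the 3 genes in a library, which does not depend on the library's scaling, Atp5g2 made up 61.0% ± 2.56 in hypothalamus and 31.1% ± 3.09 in hippocampus (SD, n = 4 each). Atp5g3 made up 23.5% ± 2.54 in hypothalamus and 58.8% ± 3.85 in hippocampus, and Atp5g1 15.5% ± 2.01 in hypothalamus and 10.1% ± 0.830 in hippocampus. None of the 3 shares overlapped between the tissues. The share still rests on how each table estimated the 3 genes.

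**Figure D4:**
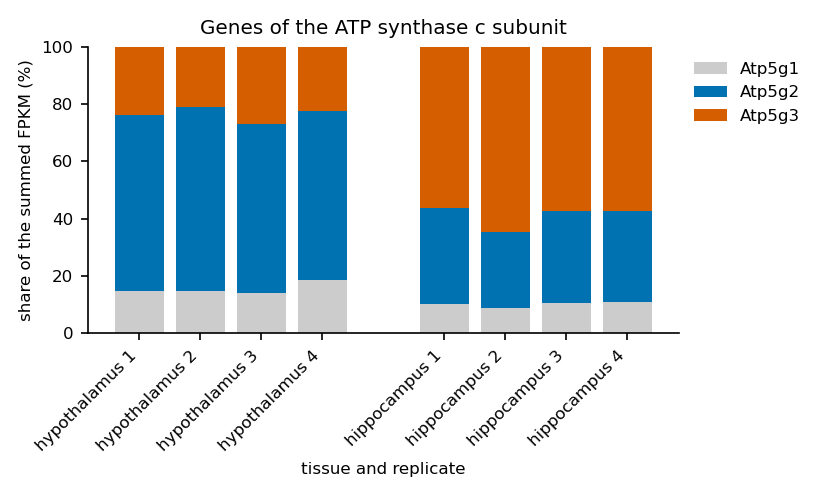
Share of each of the 3 genes of the ATP synthase c subunit in their summed FPKM, as stacked bars for each library, hypothalamus left and hippocampus right. Atp5g2 (blue) takes 59.1 to 64.5% in hypothalamus and 26.6 to 33.5% in hippocampus, and Atp5g3 (orange) takes 20.9 to 26.9% and 56.2 to 64.5% in the same order.

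Subunits 4, 6a and 8 of complex IV, which have tissue forms, each kept 1 dominant gene. Cox6a2, the form of subunit 6a known from heart and skeletal muscle, had 30.1, 36.04, 35.7 and 33.03 FPKM in hypothalamus, against 1.46, 0, 0.348 and 7.01 FPKM in hippocampus. It was listed at 0 in hippocampus replicate 2, and its difference was 3.93 ± 0.67. Its share of the subunit 6a sum was 2.31 to 3.14% in hypothalamus and 0 to 0.870% in hippocampus, without overlap. The muscle genes Myh6, Myh7, Actn2 and Ckm summed to 6.89 to 8.57 FPKM in hypothalamus and 12.7 to 17.8 FPKM in hippocampus, with the sum carried by Myh6 and Actn2. Myh7 had 0.437 to 0.677 FPKM in hypothalamus and 0.128 to 0.382 FPKM in hippocampus, without overlap, and Ckm had 0.0333 to 0.665 FPKM in hypothalamus and was at 0 in hippocampus replicates 1 to 3. The part of muscle RNA in the Cox6a2 values was not tested. Cox4i2, known as the lung form of subunit 4, made up 0.666 to 1.36% of subunit 4 in hypothalamus and 0.399 to 0.897% in hippocampus, with overlap. Ndufa4l2, a relative of the complex IV subunit Ndufa4, made up 0.759 to 3.95% of that pair in hypothalamus and 0.567 to 1.23% in hippocampus. Hypothalamus replicate 1 was the low value there, and without it Ndufa4l2 was called higher at 1.38, as it was without hippocampus replicate 1 (1.22) and with values as deposited (1.27). Cox7a2 made up 0.810 to 1.38% of the sum of Cox7a2 and Cox7a2l, which encodes a factor of respiratory supercomplexes, in hypothalamus and 3.68 to 4.88% in hippocampus. That pair is not a set of tissue forms, and Cox7a2 had low values in both tissues. Cox8a made up 99.6 to 99.9% of subunit 8 over the 8 libraries, with Cox8b at no more than 0.389% and Cox8c at no more than 0.0795%.

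The 6 complex I assembly factors, which build the complex without staying in it, were all below the size of a call, with a median difference of -0.53. Their means ran from 4.50 FPKM for Ndufaf4 to 33.2 FPKM for Ndufaf3 in hypothalamus and 8.69 FPKM for Ndufaf4 to 30.3 FPKM for Ndufaf5 in hippocampus. Ndufaf3 had 29.98, 34.6, 33.6 and 34.5 FPKM in hypothalamus, against 22.6, 10.8, 15.9 and 21.5 FPKM in hippocampus, a difference of 0.92 ± 0.24, and Ndufaf7 had 12.5, 7.72, 7.91 and 8.12 FPKM in hypothalamus, against 17.03, 15.1, 14.99 and 20.3 FPKM in hippocampus, a difference of -0.84 ± 0.18. Ndufaf3 was called higher under 6 of the 19 alternatives, at up to 1.15 with values as deposited, and Ndufaf5 was called lower without replicate 1 of both tissues, at -1.01. Atp5sl, listed in RefSeq as Dmac2, an assembly factor of complex I, was higher by 1.16 ± 0.24, and by 0.97 without hippocampus replicate 2, which was not called.

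Of the 84 members, 4 were listed for hypothalamus alone, and no comparison was made for them. Scaled as above, Ndufa7, an accessory subunit of complex I, had 333, 417, 447 and 406 FPKM in hypothalamus, and Ndufs3, a core subunit, had 130.5, 126, 129 and 126 FPKM. Atp5d, the delta subunit of ATP synthase, had 229, 219.9, 229 and 217 FPKM, and Atp5s, listed in RefSeq as Dmac2l, had 7.06, 2.64, 1.81 and 3.25 FPKM. The first 3 of these were thus as abundant as many subunits listed in both tables.

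Within hippocampus, most members moved together from library to library. Of the 71 members whose hippocampus mean reached 5 FPKM, 56 had their lowest value in replicate 2, or 78.9%, against 39.5% of the 7802 symbols at that level and 51.2% of those at 50 FPKM or more. In replicate 4, 45 of the 71 had their highest value, or 63.4%. Of all symbols 23.5% did, and of those at 50 FPKM or more 32.0% did. The median deviation of the members from their own tissue mean was 0.16 in replicate 1, -0.51 in replicate 2, -0.01 in replicate 3 and 0.30 in replicate 4, on log2(FPKM + 1) scaled within the table. All 5 complexes shared the low library: replicate 2 was lowest for 23 of 28 complex I genes, 3 of 4 of complex II, 5 of 7 of complex III, 9 of 12 of complex IV and 10 of 12 of ATP synthase. Its summed level of all subunits, 8943 FPKM, compares with 11392 to 15081 FPKM in the other three. The median SD of members was 0.41 in hippocampus, against 0.26 for all symbols, and was 0.22 without replicate 2. Tissue and diet were the same for all 4 libraries.

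The other 15 of the 71 were not lowest in replicate 2, and 9 of them had their highest hippocampus value there. Those 9 were the catalytic alpha subunit gene Atp5a1, Atp5l, Cox7c, Ndufa1, Ndufs1, Uqcrc2, the Rieske protein gene Uqcrfs1 and the assembly factor genes Ndufaf1 and Ndufaf4. The remaining 6, Cox5a, Cox7b, Ndufb4, Ndufs4, Ndufv3 and Sdhd, were neither lowest nor highest in it. Atp5l had 705, 845, 659.7 and 722 FPKM, Cox7c had 375, 514, 334 and 277 FPKM and Ndufs1 had 58.9, 93.8, 78.2 and 63.2 FPKM in hippocampus replicates 1 to 4. The members with the largest SD were at the other end: Ndufs5, at 0.82, had 29.01, 8.32, 22.03 and 31.04 FPKM in hippocampus, Ndufb3 had an SD of 0.76 and Cox6a1 one of 0.74.

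Other genes also differed in hippocampus replicate 2. Ribosomal protein genes had their lowest value there in 37 of 57 cases, or 64.9%, with a median deviation of -0.37, and all 7 genes of the transport of ATP, ADP and phosphate did, with a median of -0.32. Of the citrate cycle genes 7 of 14 and of the biogenesis regulators 3 of 11 were lowest in it. Replicate 2 was also the shallowest of the libraries whose relative depth could be read from the steps of low values: the FPKM of a single fragment there was 1.36 times that of replicate 3 and 1.44 times that of replicate 4, while replicate 1 shared too few steps with them to be read, at 4.96 to 6.25% of the loci used. Choroid plexus markers Ttr, Kl and Clic6 summed to 13.5 to 81.1 FPKM in hypothalamus and to 39.7, 40.1, 6761 and 5056 FPKM in hippocampus replicates 1 to 4; all 3 were above 0 in every library. Markers of neurons (Rbfox3, Snap25, Syt1, Stmn2 and Tubb3) summed to 1140.1 to 1393 FPKM in hypothalamus and 1833 to 2111 FPKM in hippocampus. The highest of the hippocampus sums was in replicate 2, where Syt1 was highest of the 4 libraries and Rbfox3 and Tubb3 were lowest. Astrocyte markers summed to 975 FPKM in that library and 737 to 849 FPKM in the other three of hippocampus, with 3 of the 5 genes highest there and the other two lowest. Myelin markers summed to 5309 FPKM, against 3564 to 5030.1 FPKM, with 2 of 5 highest and 1 lowest. Microglia markers were at their lowest sum in it, 109.6 FPKM against 143 to 145 FPKM, with 3 of 5 lowest and 1 highest, and so were endothelial markers, at 86.4 FPKM against 97.3 to 119 FPKM, although Cldn5 alone of 4 was lowest and 2 were highest. The genes of hippocampal principal neurons had their lowest sum in it too, 994 FPKM against 1073 to 1656 FPKM, with 2 of 4 lowest and 1 highest. Smooth muscle and pericyte markers, at 184 FPKM, lay within the 115 to 354 FPKM of the other three. The part of depth or cell makeup in the pattern was not tested.

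**Figure D5:**
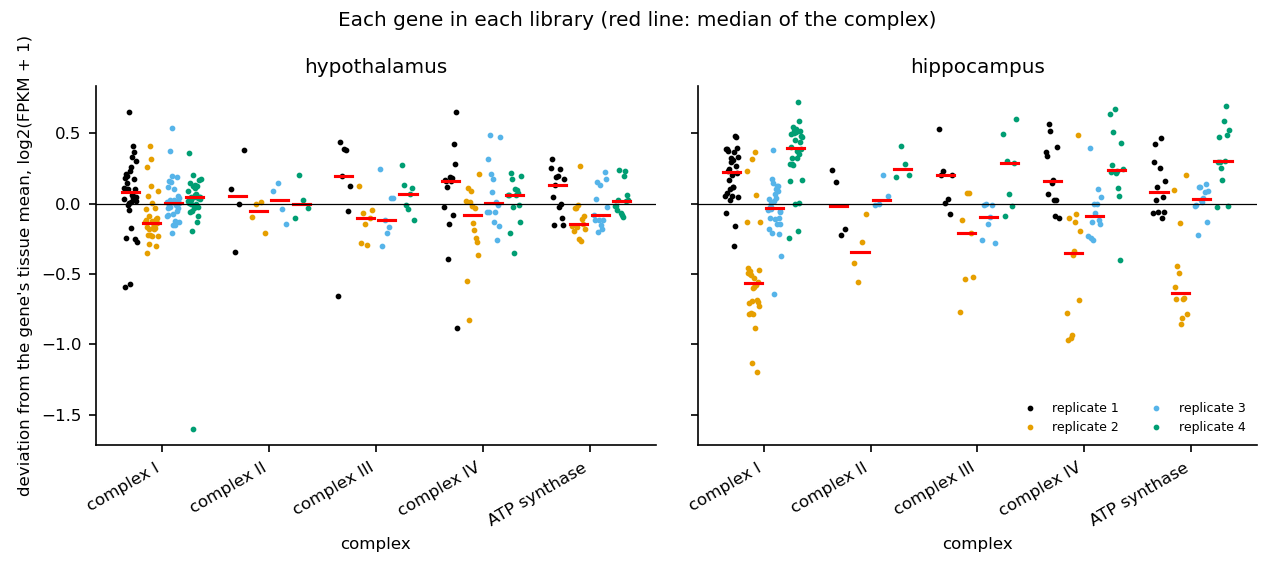
Deviation of each subunit gene whose tissue mean reached 5 FPKM from its own mean over the 4 libraries of a tissue, on log2(FPKM + 1), by complex and replicate, with hypothalamus left and hippocampus right. In hippocampus the medians (red lines) of all 5 complexes are lowest in replicate 2, down to -0.63 in ATP synthase, while no hypothalamus median lies further than 0.19 from 0.

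In hypothalamus the members varied less. Their median SD was 0.17, against 0.20 for all symbols, and 0.12 without replicate 1. Replicate 2 was again the lowest library for 41 of 77 members, or 53.2%, against 24.9% of all symbols, and for 23 of 32 complex I genes, but the median deviation in it was only -0.12. Replicate 1 held the highest value of 38 members, or 49.4%, against 41.0% of all symbols. It also held the lowest value of 18 members, or 23.4%, against 41.9% of all symbols. As in hippocampus, too few steps were shared with replicate 1 to read its relative depth, at 4.17 to 5.26% of the loci used. Replicate numbers link no libraries across tissues as far as the labels say. The members with the largest SD were Ndufb2 at 1.07, Ndufa4l2 at 0.60 and Cox5b at 0.57, the last with 763, 403, 1000.0 and 826 FPKM.

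Lists of genes that work with the complexes were compared in the same way. The median absolute difference was 0.98 for the members, 0.93 for ribosomal protein genes and 0.59 for all genes. It was 0.78 for other assembly factors and 0.43 for the citrate cycle. For regulators of biogenesis it was 0.38, and for the transport of ATP, ADP and phosphate 0.23. Cycs, the somatic cytochrome c that carries electrons from complex III to complex IV, had 63.4, 29.9, 40.3 and 38.8 FPKM in hypothalamus, against 5.56, 16.6, 21.8 and 11.2 FPKM in hippocampus, a difference of 1.67 ± 0.45. Atpif1, the inhibitor of ATP synthase and the highest of the carrier and regulator list, differed by 0.07 ± 0.26. Among 24 other assembly factors 37.5% were called, against 26.7% of all genes compared. Of these factors 6 were higher in hypothalamus and 3 lower. Pet100, a complex IV assembly factor, had 278, 232, 177 and 263 FPKM in hypothalamus, against 32.5, 16.4, 19.7 and 33.3 FPKM in hippocampus, a difference of 3.21 ± 0.29, and Cox17, the copper chaperone of complex IV and the highest of the list in hippocampus, was higher by 1.28 ± 0.19. Bcs1l, which inserts the Rieske protein into complex III, had 6.47, 5.99, 6.48 and 6.400 FPKM in hypothalamus, against 27.3, 31.7, 29.8 and 32.6 FPKM in hippocampus, a difference of -2.09 ± 0.06. Cox20, which handles a mitochondrially encoded subunit of complex IV, was higher by 1.30 ± 0.17, and Coa3, another complex IV assembly factor, by 1.11 ± 0.20, or 0.97 and not called without hippocampus replicate 2. Cox16, of complex IV assembly, was lower by -1.21 ± 0.17. Ttc19, of complex III, was at -1.0 ± 0.26, Atpaf2, of ATP synthase, at 1.01 ± 0.21 and Lyrm2 at 1.01 ± 0.09. All 3 calls were lost without hippocampus replicate 2, at -0.88, 0.83 and 0.96, and under several other alternatives. Atpaf2 was summed over 2 loci in hypothalamus and 1 in hippocampus. With the highest locus in place of the sum its difference was 0.24.

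Of 15 regulators of mitochondrial biogenesis, 0 were higher and 2 lower in hypothalamus. The called share was 13.3%, against 26.7% of all genes compared, in a short list. Polg, the mitochondrial DNA polymerase, had 3.25, 4.06, 4.15 and 3.81 FPKM in hypothalamus, against 12.9, 12.3, 13.05 and 10.4 FPKM in hippocampus, a difference of -1.45 ± 0.09, and Tfb1m, a mitochondrial rRNA methyltransferase, had 10.2, 9.68, 9.403 and 9.67 FPKM in hypothalamus, against 27.04, 28.2, 25.7 and 28.6 FPKM in hippocampus, a difference of -1.40 ± 0.04. Ppargc1a, a coactivator of these programmes, differed by -0.89 ± 0.19, and Nrf1, which encodes NRF-1, by 0.22 ± 0.14, both below the size of a call. Lrpprc, which stabilises mitochondrial mRNA, was the highest of the list, at 61.8 FPKM in hypothalamus and 76.8 FPKM in hippocampus. In the citrate cycle list 2 of 15 were higher and 2 lower, or 26.7%, the same share as of all genes. Mdh2, the malate dehydrogenase of mitochondria and the highest of the list in hypothalamus, had 273, 321, 359 and 308 FPKM in hypothalamus, against 119, 82.3, 102 and 113 FPKM in hippocampus, a difference of 1.598 ± 0.14. Pdha1, a pyruvate dehydrogenase subunit, was higher by 1.28 ± 0.15. Sucla2, a succinyl-CoA ligase subunit, was lower by -1.14 ± 0.28 and Dld, the shared dehydrogenase subunit, by -1.09 ± 0.32; values as deposited ended both calls, at -0.91 and -0.86, as did leaving out hippocampus replicate 2 for Dld, also at -0.91. Of 7 transport genes 1 was lower, or 14.3%. That gene was Vdac3, a channel of the outer membrane. It had 220.4, 138, 139 and 156 FPKM in hypothalamus, against 385, 359, 421 and 421 FPKM in hippocampus, a difference of -1.30 ± 0.17. Slc25a4, an ADP/ATP carrier and the highest of that list in hypothalamus, differed by 0.19 ± 0.29, and Slc25a3, the phosphate carrier and the highest in hippocampus, by -0.53 ± 0.17.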

How the data were processed

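RNA of 4 hypothalamus and 4 hippocampus libraries of 1 diet arm was enriched for polyadenylated transcripts and sequenced, as the labels' protocols state. FPKM were deposited by the authors in 2 tables, 1 per tissue, with a status flag per value, and no member carried a flag other than OK. Cuffdiff, Cufflinks, Bowtie, Bowtie2, TopHat, TopHat2 and the rat build rn5 are named, without versions, in the submitters' processing notes. Depth is unknown.

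Loci of 1 symbol were added up and scaled by median-of-ratios factors, jointly over symbols of both tables for the values of single genes and for the tissue difference, and within a table for complex sums, deviations and SD. Genes that reached a mean of 1 FPKM were compared on log2(FPKM + 1), over all 10554 genes, with the call rule given above and no p-value. Spread within a tissue used symbols that reached a mean of 5 FPKM. The calculation was tested on simulated data. Members and lists were chosen with earlier results of these data known. Cox4nb and Cox6c-ps1 were set apart from complex IV, and kinases and a binding protein named Rps from the ribosomal protein genes, after their names were seen. Genes named are all called members, the highest and lowest of each complex, tissue forms, the largest SD, and called or highest genes of the other lists; further genes were named where a left-out library changed a call. Values of some genes under this rule are not reported here. Relative depth was read from loci under 0.05 FPKM. The NRF-1 motif was shortened by 1 letter after counts with the longer form had been seen. Alternatives were other scalings, pseudocounts, filters and loci, and each library left out. Python 3.11.15, pandas 2.3.3 and numpy 2.4.6 were used.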

Additional observations from a re-analysis of the deposited data

Results flagged for a closer look

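In 9 of 177 groups of 4 libraries, or 5.08%, 1 library stood apart from the other three by a gap, relative to the group's range, over Dixon's 95% critical value, about the 1 in 20 that chance gives. In hippocampus replicate 2, Atp5f1 (subunit b of ATP synthase) was high at 8.30 FPKM, and Cox4i2 (the lung form of subunit 4) and Ndufb3 (a complex I accessory subunit) were low at 2.32 and 14.5 FPKM. In hypothalamus replicate 1, Ndufa4 of complex IV was high at 372 FPKM, the complex I core subunit Ndufs1 at 63.8 FPKM and the assembly factor Ndufaf7 at 12.5 FPKM. The summed FPKM of ribosomal protein genes was high in the same library, at 9322. In hypothalamus replicate 2, Ndufs8, a complex I core subunit, was low at 140.2 FPKM, and so was the sum of ATP synthase, at 6928.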

How the results depend on the processing

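Of the 34 members called, 27 kept their call under all 19 alternatives, the exceptions being Atp5sl, Cox6a1, Cox6c, Ndufb7, Ndufs5, Ndufs6 and Uqcrq, while Cox4nb, Ndufa6 and Ndufa8 had several loci and were not compared where 1 locus per table was required; no difference changed sign among called members. The filters on the mean, the limit to 1 locus and the pairing of same-numbered libraries could not end a call of a compared gene. They add no weight to the 27. With 1 library left out, 17 to 25 members were higher and 12 to 15 lower. Other pathway genes called lower numbered 8, 5 with values as deposited and 5 with both replicate 2 libraries left out (added after the data were seen). The median SD of members lay between 0.115 and 0.191 in hypothalamus and between 0.221 and 0.481 in hippocampus with 1 library left out, against 0.174 and 0.408; the cause was not tested. The share of members lowest in hippocampus replicate 2 was 73.2% with upper-quartile scaling and 79.2% at 50 FPKM or more (both added after the data were seen). The replicate block, with same-numbered libraries paired, gave 22 members higher and 12 lower. It could not end any of the 34 calls, since libraries that do not overlap also differ in 1 direction in every pair. Same-numbered libraries correlated at -0.08, -0.06, 0.08 and 0.14 across genes, over 0.1 in 1 of 4 pairs. Of the 4 hypothalamus libraries 1 correlated best with its own number, so the numbers were not treated as pairs. The labels do not say whether they are pairs. Upper-quartile scaling moved the median of all genes to 0.07, with 26 members higher and 12 lower. Depth limits the low members, such as Atp5f1, Cox7a2 and Ndufa4l2, most, and it is unknown.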
